A study of Rattus norvegicus with 20 samples.

Results

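Described here are 9 genes whose products are stored in neutrophil granules, act as neutrophil alarmins or mark neutrophils, out of 13597 genes measured in the oesophagus of rats with surgically induced reflux oesophagitis. The members are the alarmin genes S100a8 and S100a9, the antimicrobial genes Camp, RatNP-3b and Lcn2, the collagenase gene Mmp8, the lectin gene Fcnb, the secreted factor gene Retnlg and the receptor gene Trem1. Each was picked by name, in the knowledge of its measured values in these arrays, so the values of the 9 genes are given as a description. No p-value is printed for them. Where the number of members called by limma is given, the share of all genes called stands beside it, and nothing is read from that number in any comparison. Each gene was read by 1 probe, and all 9 passed the filter on dim probes. Mmp8 and RatNP-3b passed it through the untreated arrays, where alone all 4 arrays were well above background, so that they were higher in untreated rats than in the other groups follows in part from the filter.

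RNA of whole oesophageal tissue from Wistar rats was hybridised to one-colour Agilent arrays, in 5 groups of 4 arrays. Rats in 3 of the groups had reflux oesophagitis and received STW5 at 0.5 ml/kg, STW5 at 2 ml/kg or omeprazole at 30 mg/kg. Untreated rats had the same surgery and no drug, and sham rats had a sham operation. Dosing began 7 days ahead of the operation and went on for 10 days afterwards. STW5 is a liquid combination of plant extracts used for functional gut disorders, and omeprazole blocks the proton pump of the stomach and so lowers acid secretion. All drug groups therefore combine the operation with pretreatment, and the labels give no operated group dosed only after surgery and no sham group given a drug. In such bulk tissue, fewer cells of a type and less RNA per cell cannot be told apart.

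Neutrophils carry preformed proteins in granules and release them where they meet microbes or damaged tissue. The azurophil granules, made first in the bone marrow, hold serine proteases, myeloperoxidase and alpha-defensins. The later specific and gelatinase granules hold lipocalin 2, cathelicidin and matrix proteases. S100A8 and S100A9 form calprotectin, a calcium and zinc binding complex that is abundant in the neutrophil cytosol, signals danger once released, and is also made by squamous epithelium.

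Which arrays belong to which STW5 dose was not settled. The scanner files and the deposited value table agree for 12 samples, whereas in all 8 STW5 columns of the table the doses are exchanged relative to the scanner files, replicate by replicate. The sample titles and the series description also number the dose groups in opposite ways. The scanner files set the dose names used below. If the value table is right instead, the names STW5 0.5 ml/kg and STW5 2 ml/kg have to be exchanged in every result. Replicates 1 and 2 of STW5 0.5 ml/kg were nearly identical: their difference was 1.197 times the spread between spots of a probe, against at least 2.458 times for other pairs within groups. The next closest of all pairs was sham replicate 2 with omeprazole replicate 2, at 1.911 times, closer than any other pair within a group although the arrays lay on different slides. The near-identical STW5 arrays were counted as 1 sample, which leaves 19 samples and n = 3 for that group. Sham arrays lay on slide 1, untreated and STW5 0.5 ml/kg arrays on slide 2, and STW5 2 ml/kg and omeprazole arrays on slide 3, so slide and group cannot be told apart except in the comparisons of STW5 0.5 ml/kg with untreated rats and of STW5 2 ml/kg with omeprazole. Sham replicate 2 stood apart from the other sham arrays, and differences from sham are given with and without it. For the members it resembled omeprazole replicate 2, the 2 arrays having S100a8 values of 4.35 and 4.39 and Fcnb values of -2.84 and -2.84 in log2 units, and whether either array carries the wrong label was not tested. Per array, 61.5% to 70.5% of features passed the scanner software's test for signal well above background, and 0 were saturated.

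The probes of 5 members are shown because a paralogue or another transcript that binds a probe would add to its value. Each is 60 bases long and is written in the sense of the transcript, and capitals mark the longest run it shares with a probe of any other gene on the array, on either strand. Positions are those the array files give on rat build rn4: S100a8 at chr2:182962328-182962387 (plus strand), S100a9 at chr2:182987647-182987706 (minus strand), RatNP-3b at chr16:75335083-75335142 (minus strand), Fcnb at chr3:7011238-7011297 (minus strand) and Retnlg at chr11:53175296-53175355 (minus strand).
S100a8: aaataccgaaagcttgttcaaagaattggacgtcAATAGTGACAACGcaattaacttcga
S100a9: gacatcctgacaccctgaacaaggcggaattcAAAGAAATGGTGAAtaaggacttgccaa
RatNP-3b: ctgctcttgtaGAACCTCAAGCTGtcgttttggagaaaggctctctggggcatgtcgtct
Fcnb: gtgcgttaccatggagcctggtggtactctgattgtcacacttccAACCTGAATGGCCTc
Retnlg: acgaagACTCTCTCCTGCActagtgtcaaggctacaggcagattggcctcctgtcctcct
The shared runs of these 5 probes are 13 or 14 bases long, and the longest among all 9 members is 15 bases, in Camp. RatNP-3b belongs to the alpha-defensin family, whose members resemble each other. Its probe matched the Defa7 probe at 38 of 56 overlapping bases (67.9%) and the Defa10 probe at 22 of 28 (78.6%), and transcripts of the family outside the probes were not compared. A part of other alpha-defensins in the RatNP-3b value was not tested.

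Values are log2 signals minus the 75th percentile of the array, so 0 is the level of a probe brighter than 75% of features, and each step of 1 is a doubling of signal. In broad outline, all 9 genes were high in untreated rats. With STW5 0.5 ml/kg and with omeprazole they were low apart from S100a8 and S100a9, which were high in some rats of these groups. With STW5 2 ml/kg they parted, Retnlg and Lcn2 being about as high as in untreated rats while RatNP-3b stayed at background.

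**Figure D1:**
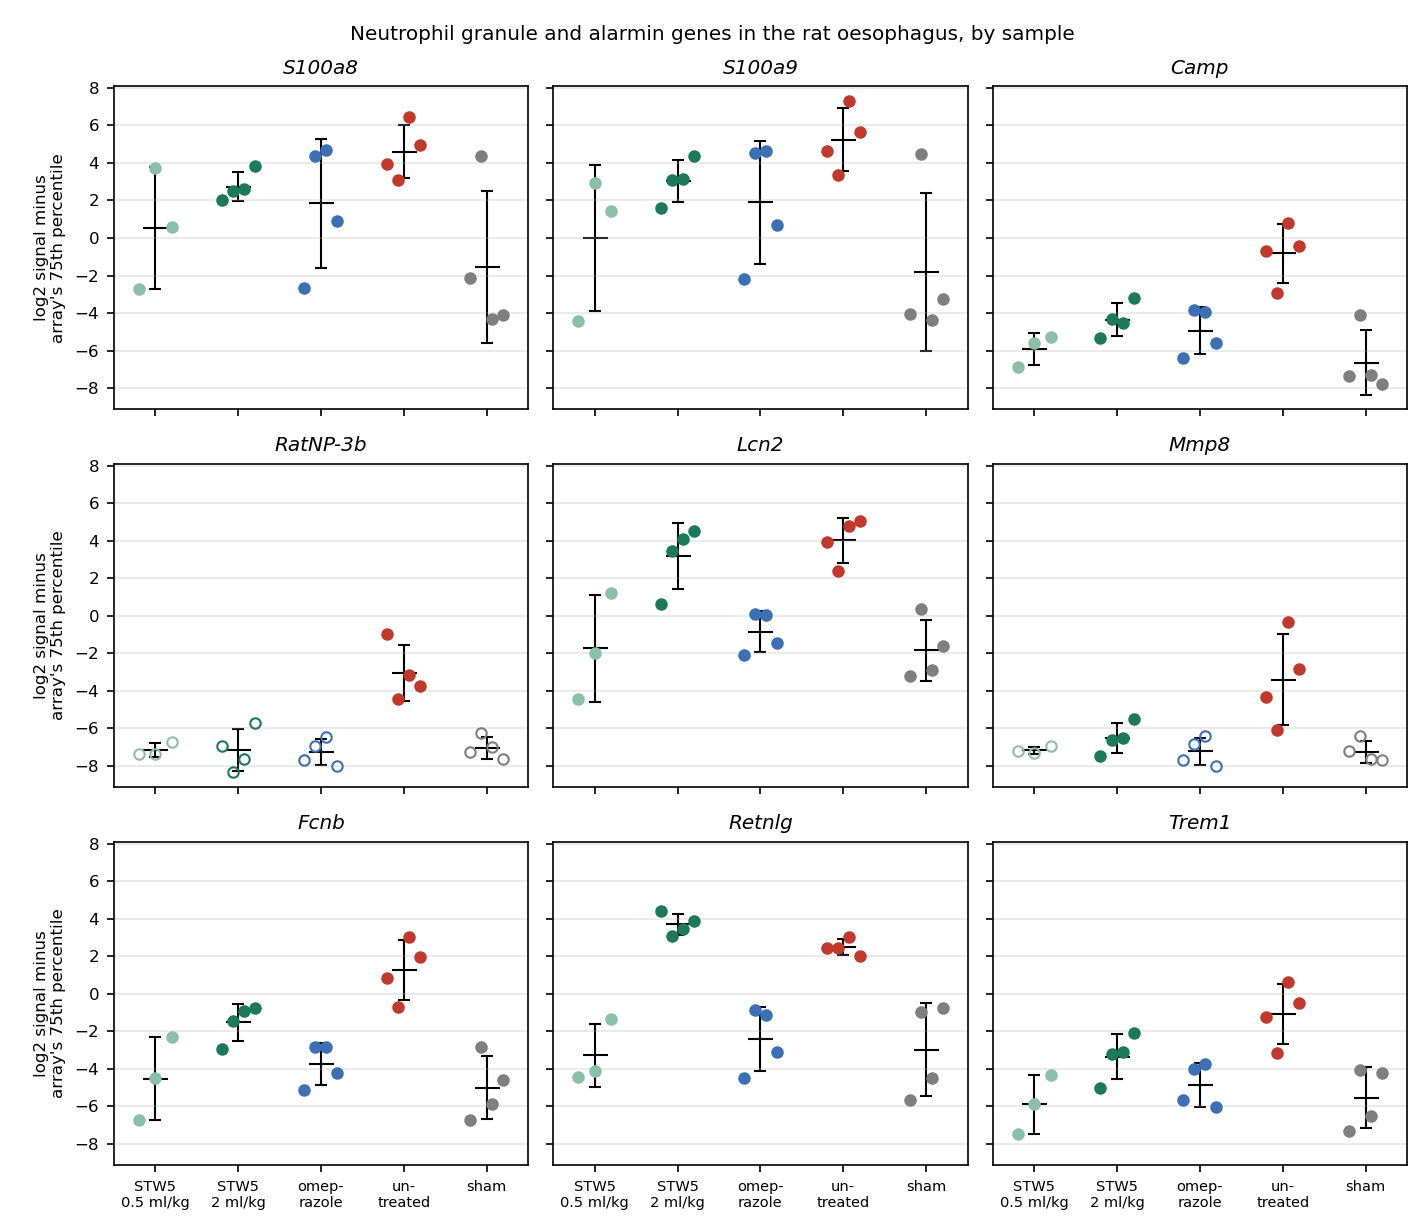
Log2 signal minus the array's 75th percentile (vertical axis) of each sample in the 5 groups (horizontal axis), 1 panel per gene, with bars for the group mean ± SD (n = 3 for STW5 0.5 ml/kg, 4 otherwise) and open points where no array of the group was well above background. The Retnlg values of STW5 2 ml/kg lie between 3.06 and 4.41, above all untreated values, while the RatNP-3b points of the same group are open and lie between -8.35 and -5.74.

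The alarmin genes S100a8 and S100a9 lie close together on chromosome 2 (GRCr8 178464095 to 178465223 and 178487941 to 178490622). They varied most of the members within the sham, omeprazole and STW5 0.5 ml/kg groups. The largest SD was that of Mmp8 in untreated rats (2.44) and that of Lcn2 with STW5 2 ml/kg (1.75). S100a8 stood at -2.73, 3.75 and 0.59 with STW5 0.5 ml/kg, where the first value is the average of replicates 1 and 2, at 2.04, 2.49, 2.60 and 3.82 with STW5 2 ml/kg and at -2.66, 4.39, 4.71 and 0.92 with omeprazole. In untreated rats S100a8 stood at 3.95, 3.09, 6.43 and 4.96, and in sham rats at -2.12, 4.35, -4.30 and -4.09. Sham replicate 2, omeprazole replicates 2 and 3, STW5 0.5 ml/kg replicate 3 and STW5 2 ml/kg replicate 4 thus reached the range of untreated rats, and the other sham rats lay far below it. The mean was 6.15 ± 1.85 higher in untreated than in sham rats (log2 difference ± SE, n = 4 and 4), or 8.11 without sham replicate 2.

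S100a9 repeated this spread. Its values were -4.40, 2.94 and 1.46 with STW5 0.5 ml/kg, 1.59, 3.08, 3.15 and 4.35 with STW5 2 ml/kg and -2.18, 4.51, 4.64 and 0.67 with omeprazole. Untreated rats had 4.66, 3.38, 7.32 and 5.65, and sham rats had -4.07, 4.49, -4.35 and -3.25. Again sham replicate 2, omeprazole replicates 2 and 3 and STW5 2 ml/kg replicate 4 reached the untreated range, and with STW5 2 ml/kg the 4 rats were closer to each other than in any other group. The difference of untreated from sham rats was 7.05 ± 1.95, or 9.14 without sham replicate 2. Against untreated rats, S100a9 differed by -5.25 ± 2.11 with STW5 0.5 ml/kg, by -2.21 ± 1.95 with STW5 2 ml/kg and by -3.34 ± 1.95 with omeprazole. The corresponding S100a8 differences were -4.07 ± 1.99, -1.87 ± 1.85 and -2.77 ± 1.85. In these 6 differences the standard errors were 1.85 to 2.11, the largest among the members.

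Among the antimicrobial genes, Camp encodes cathelicidin, whose cleaved peptide disrupts microbial membranes. Camp stood at -6.87, -5.61 and -5.29 with STW5 0.5 ml/kg, at -5.35, -4.33, -4.53 and -3.18 with STW5 2 ml/kg and at -6.39, -3.84, -3.94 and -5.62 with omeprazole. Untreated rats had -0.71, -2.95, 0.79 and -0.41, and sham rats had -7.35, -4.09, -7.33 and -7.81. Every untreated rat lay above every rat of the other 4 groups, although untreated replicate 2 was only just above the highest STW5 2 ml/kg rat. Of the sham arrays, 1 of 4 was well above background for Camp, as was 1 of 4 with STW5 0.5 ml/kg. Camp was 5.82 ± 0.86 higher in untreated than in sham rats (6.68 without sham replicate 2), and the differences from untreated rats were -5.10 ± 0.93 with STW5 0.5 ml/kg, -3.53 ± 0.86 with STW5 2 ml/kg and -4.13 ± 0.86 with omeprazole.

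RatNP-3b encodes a neutrophil alpha-defensin of the rat and was well above background on 0 of 4 arrays in each drug group, 4 of 4 in untreated and 0 of 4 in sham rats. RatNP-3b stood at -7.38, -7.36 and -6.73 with STW5 0.5 ml/kg, at -6.92, -8.35, -7.62 and -5.74 with STW5 2 ml/kg and at -7.70, -6.93, -6.46 and -8.01 with omeprazole. Untreated rats had -0.95, -4.41, -3.14 and -3.77, and sham rats had -7.26, -6.23, -7.01 and -7.64. All 4 untreated rats lay above every rat of the other groups, whose values were at the level of background. RatNP-3b was at least 12.5-fold lower with STW5 0.5 ml/kg, at least 12.9-fold lower with STW5 2 ml/kg and at least 15.4-fold lower with omeprazole than in untreated rats, and at least 12.1-fold higher in untreated than in sham rats. Such a bound sets the mean of the brighter group against the lowest signal called well above background on each array of the dimmer group, or the probe's own signal where that was higher. The size depends on the background correction: with normexp the log2 differences from untreated rats were -1.0002, -1.49 and -1.51 for the 3 drug groups in the same order, and that of untreated from sham rats was 1.17. In this gene the highest untreated rat was replicate 1, whereas replicate 3 was the highest for Camp, Mmp8, Fcnb, Retnlg, Trem1, S100a8 and S100a9.

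Lcn2 encodes lipocalin 2, which binds the iron carriers of bacteria and is made by neutrophils and by injured epithelium. Lcn2 stood at -4.45, -1.99 and 1.23 with STW5 0.5 ml/kg, at 0.63, 3.48, 4.10 and 4.52 with STW5 2 ml/kg and at -2.07, 0.09, 0.03 and -1.43 with omeprazole. Untreated rats had 3.93, 2.38, 4.79 and 5.03, and sham rats had -3.24, 0.36, -2.90 and -1.60. With STW5 2 ml/kg, 3 of 4 rats lay within the untreated range and replicate 1 lay below it, while the other drug groups and the sham group did not overlap the untreated rats. The difference from untreated rats was -0.85 ± 1.11 with STW5 2 ml/kg, against -5.77 ± 1.20 with STW5 0.5 ml/kg and -4.88 ± 1.11 with omeprazole. Lcn2 was 5.88 ± 1.11 higher in untreated than in sham rats (6.61 without sham replicate 2). It lies on chromosome 3 of GRCr8, 36078432 to 36081851.

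The protease gene of the set, Mmp8, encodes neutrophil collagenase, which cuts fibrillar collagen. Mmp8 stood at -7.23, -7.31 and -6.95 with STW5 0.5 ml/kg, at -7.46, -6.63, -6.52 and -5.49 with STW5 2 ml/kg and at -7.67, -6.82, -6.42 and -8.00 with omeprazole. Untreated rats had -4.34, -6.10, -0.35 and -2.83, and sham rats had -7.23, -6.41, -7.65 and -7.70. Apart from the untreated arrays, 1 of 4 arrays with STW5 2 ml/kg and 0 of 4 in each other group were well above background. Untreated replicate 2 was close to background, and the rat with the highest STW5 2 ml/kg value lay above it. Mmp8 was at least 9.77-fold lower with STW5 0.5 ml/kg and at least 11.9-fold lower with omeprazole than in untreated rats, and at least 10.0-fold higher in untreated than in sham rats. The log2 difference of STW5 2 ml/kg from untreated rats was -3.12 ± 0.825, which includes the 3 of 4 arrays that were not well above background. With normexp the differences were -1.08 with STW5 0.5 ml/kg, -1.53 with omeprazole and 1.26 in untreated minus sham.

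Fcnb encodes ficolin B, a lectin of myeloid cells that recognises sugars on microbes. Fcnb stood at -6.74, -4.52 and -2.34 with STW5 0.5 ml/kg, at -2.93, -1.46, -0.95 and -0.75 with STW5 2 ml/kg and at -5.12, -2.84, -2.83 and -4.26 with omeprazole. Untreated rats had 0.81, -0.71, 3.02 and 1.94, and sham rats had -6.73, -2.84, -5.89 and -4.59. The STW5 2 ml/kg mean lay between those of untreated and omeprazole rats. The highest rat of the group lay just below the lowest untreated rat, and its lowest rat was within the omeprazole, STW5 0.5 ml/kg and sham ranges. The differences from untreated rats were -5.80 ± 1.07 with STW5 0.5 ml/kg, -2.79 ± 0.99 with STW5 2 ml/kg and -5.03 ± 0.99 with omeprazole. Fcnb was 6.28 ± 0.99 higher in untreated than in sham rats, or 7.00 without sham replicate 2.

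Retnlg encodes resistin-like gamma, a small secreted cysteine-rich protein known in rodents from bone marrow and neutrophils, and lies on chromosome 11 of GRCr8, 65393907 to 65395639. Retnlg stood at -4.43, -4.13 and -1.35 with STW5 0.5 ml/kg, at 4.41, 3.06, 3.42 and 3.85 with STW5 2 ml/kg and at -4.52, -0.87, -1.16 and -3.11 with omeprazole. Untreated rats had 2.44, 2.45, 3.03 and 1.99, and sham rats had -5.67, -0.99, -4.50 and -0.78. All 4 STW5 2 ml/kg rats lay above all 4 untreated rats, and all rats of the remaining groups lay far below both. Replicate 1 of STW5 2 ml/kg was the highest Retnlg value of all 19 samples and the lowest of its group for Lcn2, Camp, Mmp8, Fcnb, Trem1, S100a8 and S100a9. The difference from untreated rats was 1.21 ± 1.02 with STW5 2 ml/kg, a shift about the size of its standard error in the fit over all groups, and it stayed between 0.97 and 1.42 when any single rat was left out or another setting but the value table was used. The other drug groups differed from untreated rats by -5.78 ± 1.10 (STW5 0.5 ml/kg) and -4.89 ± 1.02 (omeprazole), and untreated rats from sham rats by 5.46 ± 1.02 (6.13 without sham replicate 2).

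Trem1 encodes a receptor of neutrophils and monocytes that amplifies inflammatory signals through the adaptor Tyrobp. Trem1 stood at -7.47, -5.90 and -4.36 with STW5 0.5 ml/kg, at -5.02, -3.22, -3.13 and -2.11 with STW5 2 ml/kg and at -5.67, -4.00, -3.75 and -6.07 with omeprazole. Untreated rats had -1.26, -3.17, 0.61 and -0.50, and sham rats had -7.35, -4.09, -6.51 and -4.24. Untreated replicate 2 was again the lowest of its group and fell inside the STW5 2 ml/kg range, and no rat of the other 3 groups reached the untreated range. Trem1 differed from untreated rats by -4.83 ± 1.01 with STW5 0.5 ml/kg, -2.29 ± 0.93 with STW5 2 ml/kg and -3.79 ± 0.93 with omeprazole. It was 4.47 ± 0.93 higher in untreated than in sham rats, or 4.96 without sham replicate 2.

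**Figure D2:**
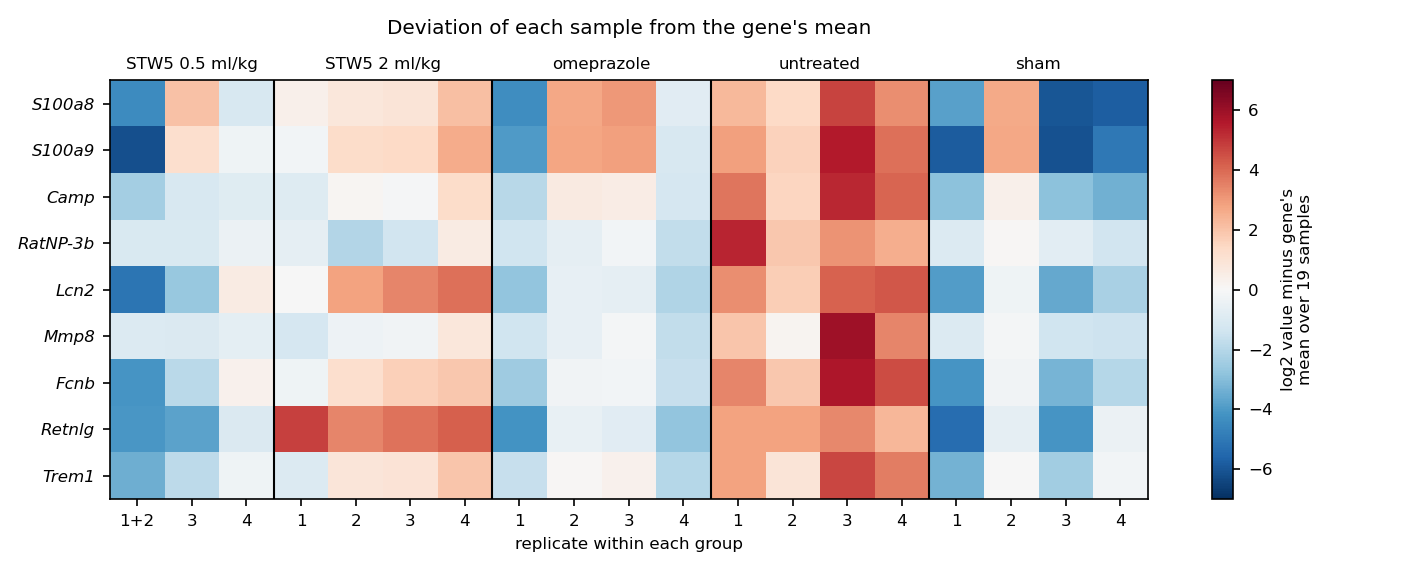
Deviation of each of 19 samples (columns, by group and replicate) from the gene's mean over the samples (rows, 9 genes), in log2 units from blue (below) to red (above). In sham replicate 2, S100a8 and S100a9 are red (4.35 and 4.49 before centring) where the other 3 sham columns are dark blue, and Retnlg is red in all 4 STW5 2 ml/kg columns.

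Averaged over the 9 genes, each centred on its mean, STW5 0.5 ml/kg samples ranged from -3.53 to -0.42, STW5 2 ml/kg rats from 0.10 to 2.13 and omeprazole rats from -2.67 to 0.53. Untreated rats ranged from 1.54 to 4.72, and sham rats stood at -3.45, 0.50, -3.39 and -2.42. Sham replicate 2, at 0.50, was the sham array above its group here too.

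The first comparison asked what reflux surgery changed. All 9 members were called higher in untreated than in sham rats at an adjusted p under 0.05, where limma called 15.0% of all 13597 genes higher and 17.9% lower. In 7 of 9 members every untreated rat lay above every sham rat, against 11.7% of all genes, and the exceptions were S100a8 and S100a9. The median difference of the members was 5.82, and that of all genes was -0.08. The call of S100a8 was lost without sham replicate 3, sham replicate 4 or untreated replicate 3.

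The drug comparisons asked how the treated groups differed from untreated oesophagitis. They share the untreated rats with each other and with the surgery comparison, so a low or high untreated rat moves all of them. With STW5 0.5 ml/kg, 7 of 9 members were called lower, all but S100a8 and S100a9, against 15.9% of all genes lower and 21.7% higher, and 8 of 9 lay wholly below the untreated rats, against 15.3% of all genes. Mmp8 was not called with normexp background correction or with only these 2 groups fitted, while S100a9 was called with normexp and without STW5 0.5 ml/kg replicate 3, and both alarmins were called with all 20 arrays. With omeprazole the same 7 genes were called lower, against 12.2% of all genes lower and 15.6% higher, and 7 of 9 lay wholly below the untreated rats, against 12.6%. Without omeprazole replicate 2 these differences were larger, at -5.19 for Lcn2, -4.50 for Camp, -5.33 for Fcnb, -5.41 for Retnlg and -4.08 for Trem1, and those of S100a8 and S100a9 were -3.62 and -4.21. With STW5 2 ml/kg, Camp, Mmp8 and RatNP-3b were called lower, against 4.37% of all genes lower and 5.13% higher, and Camp, Fcnb and RatNP-3b lay wholly below the untreated rats, against 7.96% of all genes. The count of 3 members called was 5 without untreated replicate 2 and 1 without untreated replicate 3 or STW5 2 ml/kg replicate 1. The call of Mmp8 was lost in 5 of 8 fits that left out 1 rat, those without untreated replicate 3 or 4 or STW5 2 ml/kg replicate 1, 2 or 3, and with only these 2 groups fitted. The median member difference from untreated rats was -5.10 with STW5 0.5 ml/kg, -2.29 with STW5 2 ml/kg and -4.13 with omeprazole, where the medians of all genes were 0.17, -0.01 and 0.10.

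**Figure D3:**
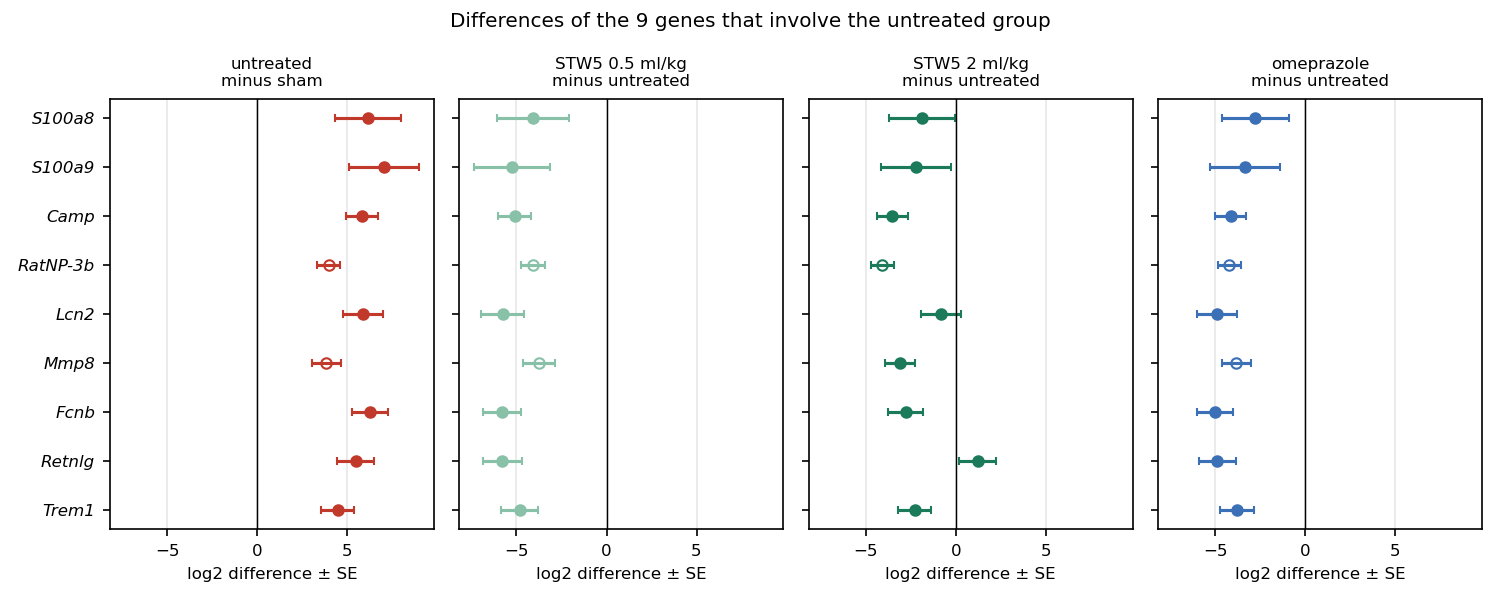
Log2 difference ± SE (horizontal axis) of the 9 genes (vertical axis) in the 4 comparisons that involve the untreated group, with open points where a group was not well above background on any array and the fold is only a bound. In the panel of STW5 2 ml/kg minus untreated, Retnlg (1.21) lies right of 0 and Lcn2 (-0.85) near it, while every point lies left of 0 in the panels of STW5 0.5 ml/kg and omeprazole.

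Retnlg was included because it was seen to stay high with STW5 2 ml/kg, so its differences there, like those of the other members, describe the values it was chosen by. Against STW5 0.5 ml/kg, Retnlg was higher by 6.99 ± 1.10 and Lcn2 by 4.92 ± 1.20, the members called higher in this comparison, where 10.7% of all genes were called higher and 13.2% lower. Fcnb (3.01 ± 1.07) and Trem1 (2.54 ± 1.01) had smaller differences and were not called, and 4 members were called without STW5 0.5 ml/kg replicate 4 or STW5 2 ml/kg replicate 1. Fcnb, close to the threshold, was also called with median scaling, no filter on dim probes, a filter of 10 arrays or low signals raised. It was called without STW5 0.5 ml/kg replicate 1 as well. Same-numbered arrays of these 2 groups deviated together in 4 of 4 pairs (r from 0.116 to 0.238), of which the pairs of replicates 1 and 2 share the near-identical STW5 0.5 ml/kg arrays. With the replicate number as a block, over all 20 arrays, Fcnb and Trem1 were called as well, 4 members in all. The same 4 were called over all 20 arrays without the block, where the near-identical arrays count separately. Against omeprazole, on the same slide, Retnlg was higher by 6.10 ± 1.02 and was the member called, where 0.191% of all genes were called higher and 0.0294% lower. Lcn2 was 4.03 ± 1.11 higher there with no overlap of the groups and was not called. The Retnlg call against omeprazole was lost without STW5 2 ml/kg replicate 1, 3 or 4 and without omeprazole replicate 1 or 4, although the difference stayed between 5.40 and 6.62 in these and the other settings apart from the value table.

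Against sham rats, Lcn2 (5.03 ± 1.11), Fcnb (3.49 ± 0.99) and Retnlg (6.67 ± 1.02) were called higher with STW5 2 ml/kg, where 6.05% of all genes were called higher and 2.49% lower. Without sham replicate 2 the differences were 5.76, 4.21 and 7.34, and 6 members were called, Camp, S100a8 and S100a9 joining, while 1, Retnlg, was called without STW5 2 ml/kg replicate 4. The call of Fcnb was lost without sham replicate 1 or 3 or STW5 2 ml/kg replicate 2, 3 or 4, with no filter on dim probes and with normexp, where the difference was 1.73. RatNP-3b (-0.12 ± 0.64) was at background on both sides. These values share the STW5 2 ml/kg rats with the preceding comparisons.

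**Figure D4:**
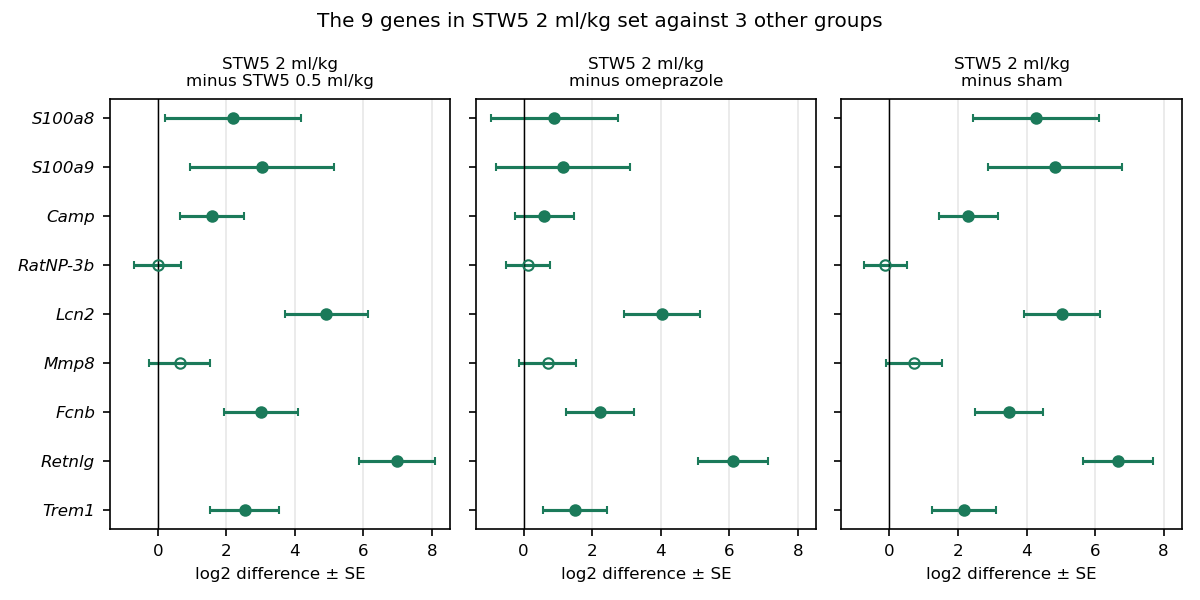
Log2 difference ± SE (horizontal axis) of the 9 genes (vertical axis) in STW5 2 ml/kg minus STW5 0.5 ml/kg, minus omeprazole and minus sham, with open points where a group was not well above background on any array. Retnlg lies farthest right in each panel (6.99, 6.10 and 6.67), and RatNP-3b lies within 0.12 of 0.

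Other genes of neutrophil biology were taken from 7 lists, also written with earlier results known, of which 80 of 106 genes were tested in the same limma fit. Among those tested, Defa10 and a receptor gene were well above background only on untreated arrays. Their part in the counts below therefore follows in part from the filter. In untreated against sham rats 43 of the 80 rose and 11 fell, with a median difference of 1.44. Of all genes 15.0% rose and 17.9% fell. The 6 subunits of the phagocyte NADPH oxidase, the enzyme that makes superoxide, all rose. Among them Ncf4, Cyba and Cybb rose by 3.41 ± 0.45, 2.31 ± 0.31 and 3.51 ± 0.51 (adjusted p = 0.000181, 0.000181 and 0.000277). Of 28 receptors and adhesion molecules 21 rose and 1 fell. Among them the Fc receptor gene Fcgr2a rose by 3.36 ± 0.41, the adaptor gene Tyrobp by 3.60 ± 0.47, the bacterial lipoprotein receptor gene Tlr2 by 4.43 ± 0.58 and the endotoxin co-receptor gene Cd14 by 3.87 ± 0.52 (adjusted p = 0.000180, 0.000180, 0.000180 and 0.000188). Csf3r, the receptor for granulocyte colony-stimulating factor, rose by 5.23 ± 1.06 (adjusted p = 0.00178), while the chemokine receptor gene Cxcr2 differed by 0.42 ± 0.33 (adjusted p = 0.358).

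Among 13 other granule and secreted genes 9 rose and 1 fell. Hp, which encodes haptoglobin, rose by 5.63 ± 0.82, the chitinase-like gene Chi3l1 by 5.09 ± 0.83, the peptidoglycan recognition gene Pglyrp1 by 5.03 ± 0.89 and the proteoglycan gene Srgn by 3.54 ± 0.66 (adjusted p = 0.000266, 0.000472, 0.000760 and 0.00101). Mmp9, the gelatinase gene, rose by 4.77 ± 1.20 (adjusted p = 0.00657). Mpo, the myeloperoxidase gene of azurophil granules, differed by -0.45 ± 0.32 (adjusted p = 0.304). The azurophil protease gene Elane was well above background on 1 of the 20 arrays, the lactoferrin gene Ltf on 1 and the specific granule gene Ngp on 3, so these defining granule genes were too dim to test. In all, 23 listed genes failed the filter, 8 of them with no array well above background, and 3 had no matched probe. The granule markers Elane, Ltf and Ngp were thus dim, and Mpo was of low signal and not called, whereas Pglyrp1 and Mmp9 rose. The Mpo means were -6.04 in untreated and -5.59 in sham rats. For comparison, Camp at -5.61 in STW5 0.5 ml/kg replicate 3 was not well above background. Little is therefore read from Mpo in any comparison. Of the alpha-defensin genes that failed the filter, Np4 and Defa5 were well above background on 3 arrays each, all untreated. The others were so on 0 or 1 array.

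Of 8 regulators of granulocyte formation 7 rose: Spi1, the myeloid transcription factor PU.1, by 3.44 ± 0.43, the interleukin 17 receptor gene Il17ra by 2.17 ± 0.30, Cebpe, which drives late granule genes, by 2.97 ± 0.51, and the growth factor gene Csf3 by 3.31 ± 0.61 (adjusted p = 0.000180, 0.000210, 0.000649 and 0.000982). Of 16 other S100 and alarmin genes 12 were not called and 4 fell, namely S100b (-2.17 ± 0.43), S100a16 (-1.07 ± 0.26), S100a1 (-1.41 ± 0.37) and S100a13 (-0.84 ± 0.23), at adjusted p = 0.00157, 0.00535, 0.00871 and 0.0108. As 17.9% of all genes fell in this comparison, nothing is read from the count of 4. Among 5 genes of the ficolin and lectin pathway and of lipocalin receptors, the ficolin A gene Fcna rose by 1.40 ± 0.45, and the lipocalin 2 receptor gene Lrp2 (-1.97 ± 0.32) and the serine protease gene Masp2 (-1.18 ± 0.345) fell (adjusted p = 0.0249, 0.000433 and 0.0156). Of 6 epithelial antimicrobial genes the lysozyme gene Lyz2, which myeloid cells share, rose by 2.43 ± 0.53, while the antiprotease gene Wfdc12 (-2.92 ± 0.69) and the beta-defensin genes Defb1 (-1.46 ± 0.36) and Defb4 (-1.36 ± 0.45) fell (adjusted p = 0.00264, 0.00460, 0.00564 and 0.0277).

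**Figure D5:**
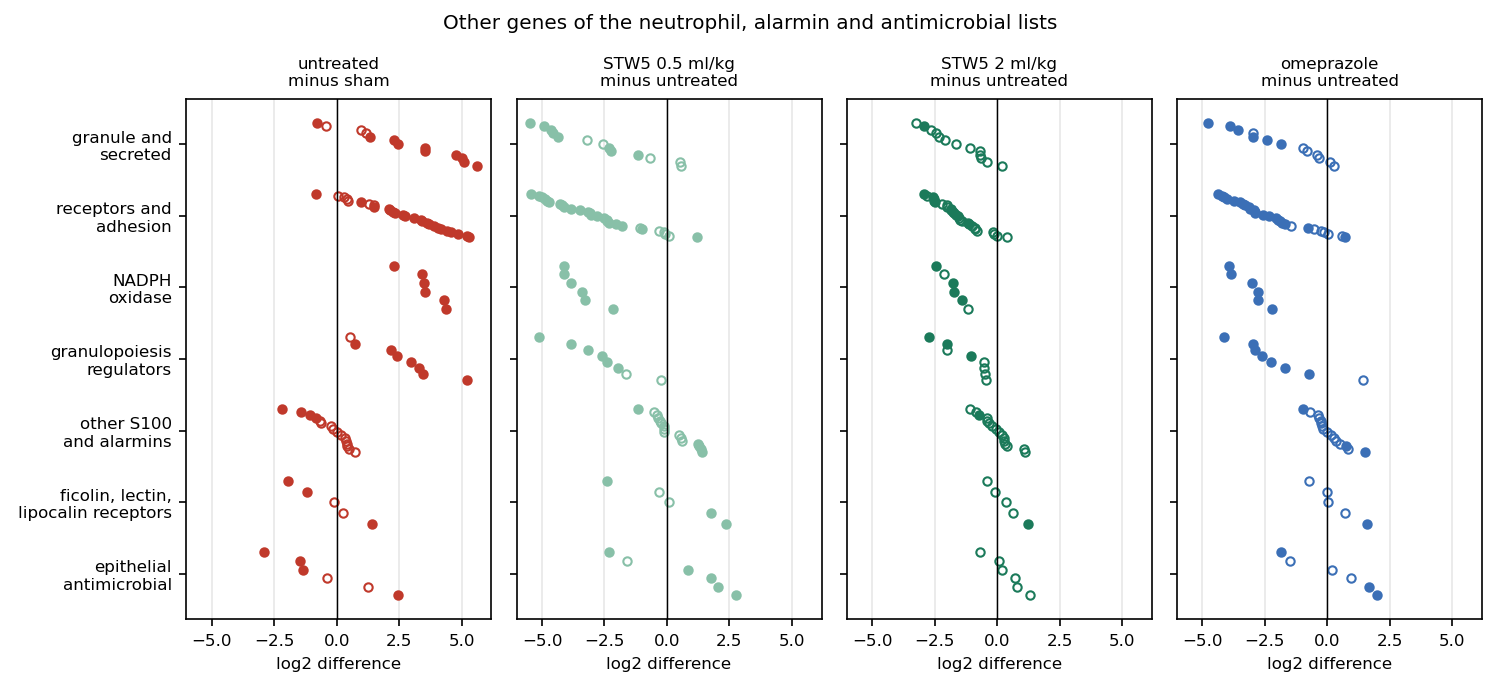
Log2 difference (horizontal axis) of each tested gene of 7 lists (vertical axis) in the 4 comparisons that involve the untreated group, filled where limma's adjusted p was under 0.05. All points of the NADPH oxidase genes lie right of 0 in untreated minus sham, while the other S100 and alarmin genes lie on both sides of 0.

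With STW5 0.5 ml/kg 43 of the 80 listed genes fell relative to untreated rats and 11 rose (median -2.00). Of all genes 15.9% fell and 21.7% rose. All 6 NADPH oxidase genes fell, among them Ncf4 (-3.28 ± 0.49) and Cyba (-2.15 ± 0.33), at adjusted p = 0.000275 and 0.000313. Of 28 receptors 22 fell and 1 rose. Cd14 differed by -4.27 ± 0.56, Ptafr, the receptor of platelet-activating factor, by -2.41 ± 0.33, Tyrobp by -3.49 ± 0.51 and Csf3r by -5.11 ± 1.14 (adjusted p = 0.000182, 0.000219, 0.000256 and 0.00254), while Cxcr2 differed by -0.08 ± 0.36 (adjusted p = 0.882). Of 13 granule genes 8 fell, with differences of -4.35 ± 0.71 for Srgn and -4.93 ± 0.88 for Hp and with Mmp9 at least 33.5-fold lower (adjusted p = 0.000401, 0.000627 and 0.00369), and Mpo differed by 0.57 ± 0.34 (adjusted p = 0.207). Of 8 regulators 6 fell, Spi1 with a difference of -3.83 ± 0.47 and Cebpe at least 7.02-fold lower (adjusted p = 0.000175 and 0.000569).

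Epithelial antimicrobial genes went the other way with STW5 0.5 ml/kg, 4 of 6 rising and 1, Lyz2, falling (-2.32 ± 0.57, adjusted p = 0.00452). Defb1 rose by 1.75 ± 0.39, Defb4 by 2.03 ± 0.48 and Wfdc12 by 2.77 ± 0.75 (adjusted p = 0.00233, 0.00394 and 0.00845). Lrp2 rose by 2.36 ± 0.34 and Masp2 by 1.77 ± 0.37, and Fcna fell (-2.39 ± 0.49) (adjusted p = 0.000256, 0.00173 and 0.00142). Of 16 other S100 and alarmin genes 4 rose, S100a16 by 1.38 ± 0.28 among them, and S100a6 fell (-1.14 ± 0.28) (adjusted p = 0.00138 and 0.00510). As 21.7% of all genes rose here, nothing is read from the count of 4.

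With omeprazole 39 of the 80 genes fell relative to untreated rats and 6 rose (median -1.22). Of all genes 12.2% fell and 15.6% rose. All 6 NADPH oxidase genes fell, Cyba and Ncf4 with differences of -2.21 ± 0.31 and -2.79 ± 0.45 (adjusted p = 0.000151 and 0.000502). Of 28 receptors 20 fell and 1 rose, with differences of -2.96 ± 0.41 for Fcgr2a, -3.11 ± 0.47 for Tyrobp, -3.73 ± 0.58 for Tlr2 and -4.13 ± 1.06 for Csf3r (adjusted p = 0.000155, 0.000296, 0.000367 and 0.00902), and Cxcr2 differed by -0.54 ± 0.33 (adjusted p = 0.244). Of 8 regulators 7 fell, Spi1 (-2.98 ± 0.43) and Il17ra (-1.70 ± 0.30) among them (adjusted p = 0.000206 and 0.000906). Of 13 granule genes 6 fell, Hp (-4.79 ± 0.82) and Srgn (-2.98 ± 0.66) among them (adjusted p = 0.000696 and 0.00382), whereas Mmp9 differed by -2.99 ± 1.20 and Mpo by 0.12 ± 0.32 (adjusted p = 0.0725 and 0.808). Defb1 rose by 1.68 ± 0.36 and Lrp2 by 1.60 ± 0.32 (adjusted p = 0.00302 and 0.00186).

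With STW5 2 ml/kg 19 of the 80 genes fell relative to untreated rats and 1, Lrp2, rose by 1.25 ± 0.32 (adjusted p = 0.0221), with a median of -0.89. Of all genes 4.37% fell and 5.13% rose. Of 28 receptors 10 fell, among them the integrin gene Itgam (-1.85 ± 0.36), Cd14 (-2.57 ± 0.52), Tlr2 (-2.48 ± 0.58) and Tyrobp (-1.86 ± 0.47) (adjusted p = 0.00468, 0.00686, 0.0155 and 0.0222). Of the 6 NADPH oxidase genes 4 fell, Cyba (-1.42 ± 0.31) and Ncf4 (-1.74 ± 0.45) among them (adjusted p = 0.0107 and 0.0255). Of 8 regulators 3 fell, Csf3 (-2.71 ± 0.61) and Spi1 (-2.01 ± 0.43) among them (adjusted p = 0.0125 and 0.00989), and Csf3r differed by -2.00 ± 1.06 (adjusted p = 0.227). The alpha-defensin gene Defa10 was at least 4.61-fold lower (adjusted p = 0.00555) and was the granule gene called of 13, with Mmp9 at -3.24 ± 1.20 and Mpo at 0.21 ± 0.32 (adjusted p = 0.0926 and 0.702). Defa10 was well above background only on untreated arrays, so its call follows in part from the filter and nothing is read from it. These counts rest on single rats: of the 80 genes 9, 35 and 8 were called without untreated replicate 1, 2 or 3, and 7 and 10 without STW5 2 ml/kg replicate 1 or 2.

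Between STW5 2 ml/kg and STW5 0.5 ml/kg 21 listed genes were higher and 6 lower (41 called in all with the replicate block and all 20 arrays), Tyrobp being higher by 1.63 ± 0.51 (adjusted p = 0.0293), and 9, 16, 12 and 13 genes were called without STW5 0.5 ml/kg replicate 3 or STW5 2 ml/kg replicate 2, 3 or 4. Of all genes 10.7% were called higher and 13.2% lower there. Between STW5 2 ml/kg and omeprazole limma called 0 of the 80 genes (unadjusted p under 0.05: 21 with a higher and 5 with a lower mean), and Tyrobp differed by 1.25 ± 0.47 (adjusted p = 0.206). Of all genes it called 0.191% higher and 0.0294% lower. Against sham rats 6.05% of all genes were called higher with STW5 2 ml/kg and 2.49% lower. Of the listed genes 16 were higher and 1 was lower, with Tyrobp higher by 1.74 ± 0.47 (adjusted p = 0.0325). That count was 26 without sham replicate 2, 3 without sham replicate 1 or 3, and 6, 5 and 2 without STW5 2 ml/kg replicate 2, 3 or 4.

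Values of markers of other cells are given beside those of the members. All 8 macrophage markers were measured, and their mean, each gene centred over the samples, ranged from -2.44 to -0.68 with STW5 0.5 ml/kg, from 0.21 to 1.17 with STW5 2 ml/kg, from -0.80 to -0.18 with omeprazole, from 1.26 to 2.13 in untreated rats and from -1.82 to -0.15 in sham rats. All 8 were called higher in untreated than in sham rats, and relative to untreated rats 8 of 8 were called lower with STW5 0.5 ml/kg and 7 of 8 with omeprazole. With STW5 2 ml/kg limma called 0 of 8 relative to untreated rats (4 of 8 were lower at an unadjusted p under 0.05), 7 of 8 higher than with STW5 0.5 ml/kg and 6 of 8 higher than in sham rats. Relative to omeprazole, on the same slide, it called 0 of 8 (7 of 8 were higher at an unadjusted p under 0.05). The mean of 5 T cell markers ranged from 0.29 to 2.96 in untreated and from -1.55 to 0.36 in sham rats, with 4 of 5 called higher. The mean of 2 measured eosinophil markers, of 4 listed, ranged from 0.71 to 1.75 with STW5 2 ml/kg and from -0.25 to 0.90 in untreated rats. It ranged from -0.88 to -0.10 with STW5 0.5 ml/kg, from -1.06 to -0.44 with omeprazole and from -1.02 to 0.26 in sham rats. In each group but STW5 2 ml/kg, 1 of these 2 markers was well above background on all arrays. The same mean for 8 of 9 squamous keratinocyte markers ranged from -0.83 to 0.28 in untreated and from -0.49 to 0.69 in sham rats, with 3 of 8 called lower, against 17.9% of all genes. For 7 skeletal muscle markers it ranged from -1.24 to -0.45 in untreated and from -0.07 to 0.61 in sham rats, with 4 of 7 called lower. Their part in the values of the 9 genes was not tested. In sham replicate 2, whose S100a8 and S100a9 values were high, the macrophage mean was -0.15, the T cell mean 0.36 and the squamous keratinocyte mean 0.69. Each was the highest of the sham arrays, and the keratinocyte mean was the highest of all 19 samples. Which cells the S100a8 and S100a9 signal of that array came from was not tested.

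Over the 19 samples, which fall into groups and share slides, the members followed each other with Pearson correlations between 0.455 (Retnlg with RatNP-3b) and 0.98 (S100a8 with S100a9), given as a description. Fcnb and Trem1 followed each other almost as closely (0.97). Among genes outside the set, those most like each member over the same 19 samples were Pglyrp1, Tlr2 and Ccr1 for Camp (0.98, 0.96 and 0.96), and Ms4a6a, A2m and Clec4a3 for Lcn2 (0.96 each). For Fcnb they were Timp1, Tnfrsf1b and Fcgr2b (0.99, 0.99 and 0.98), and for Trem1 Napsa, Pram1 and Glipr1 (0.99, 0.98 and 0.98). S100a9 was most like Cxcl3, Il1b and Spp1 (0.96, 0.95 and 0.93), and S100a8 most like Ggt1, Cxcl3 and Spp1 (0.925, 0.92 and 0.91). Retnlg was most like Ccl11, Plpp1 and Lilra5 (0.95, 0.93 and 0.93), Mmp8 most like Pvr, Fbxl5 and Flt1 (0.98, 0.97 and 0.96), and RatNP-3b most like Tcirg1, Stra6l and Il3ra (0.95, 0.95 and 0.93).

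Promoters are shown for 3 members that moved together in untreated rats and parted with STW5 2 ml/kg: Fcnb, S100a9 and Retnlg. Each is the 250 bases before the start of the gene in RefSeq's annotation of GRCr8, and 8 of the 9 members had a promoter entry, all but S100a8. Of the windows not shown, those of Lcn2 and Mmp8 overlap the annotated gene in part, and that of Trem1 lies within it. Capitals mark matches on either strand to TTNNGNAA, a loose form of the site bound by C/EBP factors, which drive granule genes. The Fcnb window is chr3:31800189-31800438, the S100a9 window chr2:178490623-178490872 and the Retnlg window chr11:65395640-65395889, all on the minus strand.
Fcnb: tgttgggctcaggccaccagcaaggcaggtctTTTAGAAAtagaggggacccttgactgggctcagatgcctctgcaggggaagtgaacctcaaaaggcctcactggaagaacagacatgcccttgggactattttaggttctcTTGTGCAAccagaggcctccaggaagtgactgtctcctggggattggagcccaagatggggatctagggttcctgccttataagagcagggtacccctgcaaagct
S100a9: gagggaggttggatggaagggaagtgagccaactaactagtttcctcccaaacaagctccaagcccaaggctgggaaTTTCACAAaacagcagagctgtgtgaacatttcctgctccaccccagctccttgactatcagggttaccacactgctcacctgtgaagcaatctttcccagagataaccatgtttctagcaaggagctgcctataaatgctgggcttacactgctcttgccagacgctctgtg
Retnlg: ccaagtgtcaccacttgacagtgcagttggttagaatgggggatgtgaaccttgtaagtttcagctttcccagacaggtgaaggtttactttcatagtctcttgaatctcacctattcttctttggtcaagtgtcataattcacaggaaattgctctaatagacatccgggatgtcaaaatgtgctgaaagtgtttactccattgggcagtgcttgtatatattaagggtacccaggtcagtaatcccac
These letters occur in 5 of the 8 member windows, 2 times in Fcnb, 1 time in S100a9 and 0 times in Retnlg, and in 37.2% of 33469 promoter windows of the same length. In the windows not shown they occur 1 time in Lcn2, which stayed high with STW5 2 ml/kg. They occur 2 times each in Mmp8 and RatNP-3b and 0 times in Camp and Trem1, whose means were lower with STW5 2 ml/kg than in untreated rats. GGGNNNNNCC, a loose form of the NF-kB site, occurs in 2 of the 8 member windows, those of Camp and Lcn2, and in 42.3% of all windows, with 0 overlaps with the first motif in the members. A match or its absence describes the letters of the window only.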

How the data were processed

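Labelled RNA of 20 samples was scanned on one-colour arrays, and per the file headers the authors ran Agilent Feature Extraction 10.7.3.1, giving each feature a background-subtracted intensity not scaled between arrays. Values of the deposited table are a ratio of signal to the median of that array, per a comparison with the scanner files. From the deposited intensity, log2 values minus each array's 75th percentile were computed here, spots of a probe were averaged without the 263 to 377 outlier spots per array, and 30367 probes resulted. Probes had to have 50% or more of their spots well above background on 4 or more arrays, and the brightest probe stood for a gene. Probes were named by accession (18005), symbol (2668) or synonym (547) in RefSeq's table for GRCr8, or by the array file (1933), which left 7214 unnamed.

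All 5 groups entered 1 fit in limma 3.58.1 (R 4.3.3, lmFit and eBayes, 14 residual and 2.78 prior degrees of freedom), tested on simulated data, with 7 comparisons and Benjamini-Hochberg adjustment over 13597 genes. A gene was called at an adjusted p under 0.05. Labels state 4 animals per group, and the number of arrays limits the precision. The nearly identical arrays were judged over 7730 bright probes and 190 pairs. Same-numbered arrays deviated together (r over 0.1) in 19 of 40 pairs. All 4 pairs did so between the STW5 doses, where the blocked value is given, and in no other comparison made here did all 4. The members, lists and tests were chosen with earlier results of these data known. All members are named. Of each list up to 4 called genes with the smallest p may be named in comparisons with untreated rats, and Mpo, Elane, Ltf, Ngp, Mmp9, Csf3r, Cxcr2 and Tyrobp throughout. Np4 and Defa5 are named for their detection only. The values of 1 listed gene are not reported here. Per member the 3 genes with the highest Pearson correlation are named. Alternatives were normexp background correction, quantile or median scaling, other filters, all 20 arrays, a replicate block, the slide, only the compared groups, probe means, raised low signals, the value table and leaving out each replicate. Sequences are from the array files and RefSeq.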

Additional observations from a re-analysis of the deposited data

Results flagged for a closer look

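Of 36 sets of 4 samples, each 1 gene in 1 group, 2 held a sample whose gap to the nearest other took up most of the group's range (Dixon's test at 95%), where chance gives about 1 in 20. Both were sham replicate 2: its Camp value was -4.09, against -7.35, -7.33 and -7.81 in the other sham rats, and its S100a9 value was 4.49, against -4.07, -4.35 and -3.25. STW5 0.5 ml/kg, with 3 samples, was not examined.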

How the results depend on the processing

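With 1 sample left out, all 504 member differences moved by less than the spread between replicates. Leaving out 1 of 3 or 4 samples cannot move a group mean that far, so nothing is read from this. Member differences moved by less than that spread in 613 of 634 values under the other alternatives and in 31 of 63 under the value table. Many of the 634 were unchanged by construction: those with other filters, probe means, the slide block or only the compared groups. The 613 therefore say little about stability. The other 21 of the 634 were all under normexp and smaller: in untreated minus sham Camp stood at 2.72, Mmp8 at 1.26, Fcnb at 4.29, Trem1 at 2.32 and RatNP-3b at 1.17, and in STW5 0.5 ml/kg minus untreated Camp stood at -2.52, Retnlg at -4.53, Trem1 at -2.26, Mmp8 at -1.08 and RatNP-3b at -1.0002. Mmp8, not called there, turned to -0.32 in STW5 2 ml/kg minus 0.5 ml/kg and -0.14 in STW5 2 ml/kg minus sham. Under the value table by sample, in which the STW5 doses change places, Retnlg stood at 1.18 in STW5 0.5 ml/kg minus untreated, -6.86 in STW5 2 ml/kg minus 0.5 ml/kg, -0.68 in STW5 2 ml/kg minus omeprazole and -0.30 in STW5 2 ml/kg minus sham, and Lcn2 at -4.79 and Tyrobp at -1.50 in STW5 2 ml/kg minus 0.5 ml/kg. The table then called 21 listed genes and 3 members in STW5 0.5 ml/kg minus untreated, 54 and 7 in STW5 2 ml/kg minus untreated, 2 and 0 in STW5 2 ml/kg minus omeprazole, and 0 and 0 in STW5 2 ml/kg minus sham. In STW5 2 ml/kg minus untreated, normexp gave 32 listed genes and 5 members, only the compared groups gave 9 listed genes, and a filter of 10 arrays, which removes Mmp8 and RatNP-3b, gave 1 member. STW5 2 ml/kg minus omeprazole gave 18 listed genes and 2 members with only those groups fitted and 1 listed gene with low signals raised. Without the filter on dim probes, 11 listed genes were called in STW5 2 ml/kg minus sham. With all 20 arrays, 4 members were called in STW5 2 ml/kg minus 0.5 ml/kg. The replicate block over all 20 arrays gave 41 listed genes and 4 members there, 55 and 9 in untreated minus sham, 57 and 9 in STW5 0.5 ml/kg minus untreated, and 22 and 3 in STW5 2 ml/kg minus untreated. The causes of these shifts were not tested beyond what each setting removes or swaps.

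Leaving out 1 replicate, listed genes called ranged from 46 to 56 in untreated minus sham, 51 to 55 in STW5 0.5 ml/kg, 7 to 35 in STW5 2 ml/kg and 38 to 47 in omeprazole minus untreated. They ranged from 9 to 32, 0 to 0 and 2 to 26 in STW5 2 ml/kg minus STW5 0.5 ml/kg, omeprazole and sham. Members called ranged, in the same order, from 8 to 9, 7 to 8, 1 to 5, 7 to 7, 2 to 4, 0 to 1 and 1 to 6. Slide as a random block was not run, since each group lay on 1 slide, and as a fixed block it left only the 2 comparisons within a slide, unchanged by construction. Of named listed genes, 984 values with 1 sample left out included 71 that lost and 7 that gained a call. Where no array of a group was well above background, as for RatNP-3b and Mmp8, folds are bounds that hold for the percentile scaling.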
